A study of Saccharomyces cerevisiae with 18 samples.

Results

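The nuclear genome of *Saccharomyces cerevisiae*, budding yeast, encodes most subunits of the mitochondrial respiratory chain and of the ATP synthase, and 39 of these genes are described here, of 6577 genes in the RNA-seq matrix. They were chosen by name, as subunits of known complexes. The rule uses no measured value, but the list was drawn up with earlier results of these data known. The 39 comprise 3 NADH dehydrogenase genes (*NDE1*, *NDE2*, *NDI1*), 4 succinate dehydrogenase genes (*SDH1* to *SDH4*), 9 genes of the bc1 complex (*COR1*, *QCR2*, *QCR6*, *QCR7*, *QCR8*, *QCR9*, *QCR10*, *RIP1*, *CYT1*), 9 of cytochrome c oxidase (*COX4*, *COX5A*, *COX5B*, *COX6*, *COX7*, *COX8*, *COX9*, *COX12*, *COX13*), 12 of the ATP synthase (*ATP1*, *ATP2*, *ATP3*, *ATP4*, *ATP5*, *ATP7*, *ATP14*, *ATP15*, *ATP16*, *ATP17*, *ATP18*, *ATP20*) and 2 inhibitors of that enzyme (*INH1*, *STF1*). All 39 were found in the matrix, and all 39 were among the 5954 genes whose mean value was high enough to be tested.

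Respiration passes electrons from NADH and succinate through ubiquinone, the bc1 complex and cytochrome c to cytochrome c oxidase, and the protons pumped on the way drive the ATP synthase. Budding yeast has no proton-pumping complex I and uses single-polypeptide NADH dehydrogenases in its place. On glucose, yeast ferments and holds many respiratory genes at a low level, and the CCAAT-binding Hap2/3/4/5 complex activates them when glucose runs out, with Hap4 as its regulated activator subunit.

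The study asked how chromatin and gene expression depend on Spn1, an essential histone chaperone and elongation factor that travels with RNA polymerase II. Of its 18 samples, 9 were RNA-seq libraries and are used here, 3 each of spn1 141-305, spn1 K192N and WT, and the other 9 were nuclease digestions of chromatin, which are not used here. In spn1 141-305, called Mini in the files, Spn1 lacks the N- and C-terminal domains that bind histones and nucleosomes, and in spn1 K192N a single residue of the conserved core is changed. The genotype labels give *MATa his3Δ1 leu2Δ0 met15Δ0 ura3Δ0* for WT and BY4741 as the background of both mutants, while the cell line labels carry a different BY number for each of the 9 libraries. The mutants' labels give *spn1Δ::LEU2* with the allele on a plasmid, and the study's strain list gives the same deletion, with a *HIS3* centromeric plasmid carrying full-length *SPN1*, for WT, whose label names only the parental genotype. All 3 plasmid alleles carried an N-terminal myc tag and the promoter of *SPN1*. The cultures were grown in triplicate in YPD, which is rich medium with glucose, at 30°C to mid-exponential phase, and *S. pombe* cells were added as a spike-in before the RNA was extracted. No culture was grown on a carbon source that demands respiration.

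Values are rlog, a log2-scale expression value that DESeq2 computes from counts scaled here to the spike-in and that pulls genes with few reads towards their mean. A difference of 1 is a 2-fold change, and fold changes given below are differences of rlog means, so they understate changes of weakly expressed genes. A gene was called changed at an adjusted p below 0.05 (limma, two-sided, Benjamini-Hochberg over the 5954 genes). Depth per library is unknown, because the matrix holds no counts. The authors' mean scaled count over the 9 libraries, a pooled value with no SD, ran from 26.7 for *STF1* to 18421.5 for *ATP2* with a median of 565 over the members, and 6 members were under 100. All libraries were alike in general, with Pearson correlations of 0.998 to 1.000 over genes. The median tested gene stood 0.11 above its mean in WT replicate 1 and 0.06 above it in spn1 K192N replicate 1, against 0.06 below to 0.05 above in the other 7 libraries. *SPN1* itself averaged 11.31 ± 0.42 in spn1 141-305, 12.81 ± 0.71 in spn1 K192N and 12.30 ± 0.65 in WT (SD, n = 3 each), and it was lower in spn1 141-305 than in WT (-0.99, adjusted p = 0.0064, limma) and than in spn1 K192N (-1.51, adjusted p = 0.00053). The call against WT held in 12 of 15 other fits and was lost without WT replicate 1, without WT replicate 2 and with a prior variance that ignores expression level (adjusted p up to 0.079), and spn1 141-305 overlapped WT. The allele in spn1 141-305 lacks part of the coding sequence, so these values do not cover the same length of transcript. Most mating-type genes fitted the *MATa* label in the 9 libraries. The a-cell genes *STE2* (14.40 to 14.66), *STE6* (12.00 to 12.57) and *BAR1* (12.04 to 12.38) were high. The alpha-cell genes *STE3* (6.52 to 6.75), *MF(ALPHA)1* (3.10 to 3.18) and *MF(ALPHA)2* (5.23 to 5.34) were lower. The alpha-cell gene *SAG1* went the other way, at 9.78 to 10.01, above the a-cell gene *ASG7* at 6.70 to 6.85. The a-factor genes *MFA1* and *MFA2*, whose coding sequences are only 111 and 117 bp, were listed at 0 in every library.

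Promoter sequences were searched because the known activator of these genes binds CCAAT. They were read from the RefSeq R64 genome in a window of 200 bases that ends 100 bases before each start codon. CCAAT on either strand was present in 34 of 39 member windows (87.2%), against 1843 of 6001 windows over all protein-coding genes (30.7%). The longer form TNATTGGT, which on the other strand reads ACCAATNA and therefore contains CCAAT, was present in 13 of 39 member windows (33.3%), against 3.55% of all windows. TATAAA was present in 9 of 39 (23.1%), against 34.5% of all windows. The consensus of the heme activator Hap1, searched as its long direct repeat, was present in 1 of 39, that of *QCR6*, against 0.117% of all windows. A match describes letters in a window and does not show that a factor is bound.

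All 12 ATP synthase genes and all 4 succinate dehydrogenase genes had a CCAAT, as did 8 of 9 cytochrome c oxidase genes and 7 of 9 bc1 genes. The 5 members without one in this window were *NDE2*, *COR1*, *CYT1*, *COX4* and *STF1*. The 13 members with the longer form are shown because they are the closest matches to the known binding sequence, with 24 bases each, written 5′ to 3′ on the strand of the gene and with the matched letters in capitals.
NDI1 (chrXIII:30020-30043, minus strand): tcattcggACCAATCAtatgaagg
QCR7 (chrIV:1496715-1496738, minus strand): ttgttttgACCAATCAggagcgac
RIP1 (chrV:107004-107027, plus strand): cataacggACCAATCAgcgttttg
COX6 (chrVIII:209480-209503, plus strand): aagggaccTAATTGGTccggtcaa
COX8 (chrXII:910152-910175, minus strand): cggtttgcACCAATCAtacgagag
COX12 (chrXII:225363-225386, minus strand): taacattgACCAATCAattttcag
COX13 (chrVII:144587-144610, plus strand): tttttcccACCAATGAgaggcggt
ATP3 (chrII:315371-315394, plus strand): gatggagaACCAATGAgcggcgag
ATP4 (chrXVI:408919-408942, minus strand): aatattgaACCAATCAcgacgctt
ATP7 (chrXI:408152-408175, minus strand): aaagatacACCAATTAccacttgc
ATP14 (chrXII:722556-722579, minus strand): atacacgaACCAATTAtgcatcat
ATP15 (chrXVI:29937-29960, plus strand): ttatacgaACCAATGAaatttgat
ATP17 (chrIV:1228373-1228396, plus strand): cggagagaACCAATCAtatcgaag
In 12 of these 13 the CCAAT reads along the gene's own strand, and in *COX6* it lies on the opposite strand. The sites lay 134 bases (*ATP15*) to 248 bases (*RIP1*) before the start codon.

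As a group, the members lay closer to no change in both mutants than the median tested gene did. Against WT, 33 of 39 members changed by less than 0.1 in spn1 141-305 and 33 of 39 by less than 0.1 in spn1 K192N. The same share over all tested genes was not counted. In the shortest quartile of coding length, which holds 28 of the 39, the median of all genes was -0.03 in spn1 141-305 and -0.04 in spn1 K192N. The median log2 fold change of the members was -0.017 in spn1 141-305, where the median of all tested genes was -0.09, and -0.0070 in spn1 K192N, where it was -0.08. The members thus lay above the median gene in 32 of 39 cases in spn1 141-305 and in 33 of 39 cases in spn1 K192N. Read relative to the median gene of each library, the members' medians became 0.08 in spn1 141-305 and 0.07 in spn1 K192N. Between the mutants the members' median was -0.0076, beside -0.02 for all tested genes.

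Of 117 tests, the 39 members in 3 comparisons, 3 passed. *RIP1* was called lower in spn1 141-305 against WT, where 18.8% of all tested genes were called lower and 0.453% higher. *NDE2* was called lower in spn1 K192N against WT, where 4.8% were called lower and 0.403% higher. *NDE1* was called lower in spn1 141-305 against spn1 K192N, where 1.28% were called lower and 0.621% higher. No member was called higher in any of the 3 comparisons. With limma at an unadjusted p below 0.05, 5 members passed in spn1 141-305 against WT, all lower, and 2 in spn1 K192N against WT, 1 of them lower, and 2 between the mutants, both lower. After libraries were centred on the median gene, 3 members were called higher in spn1 141-305 (*QCR7*, *ATP17* and *ATP20*) and none lower, beside 3.01% of all tested genes higher and 8.67% lower. In spn1 K192N *NDE1* was called higher and no member lower, beside 1.31% higher and 3.24% lower, and between the mutants *NDE1* alone was called, as lower, beside 2.52% lower and 1.71% higher. The RNA came from bulk cultures, so a change in every cell and a larger change in some of the cells cannot be told apart.

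**Figure D1:**
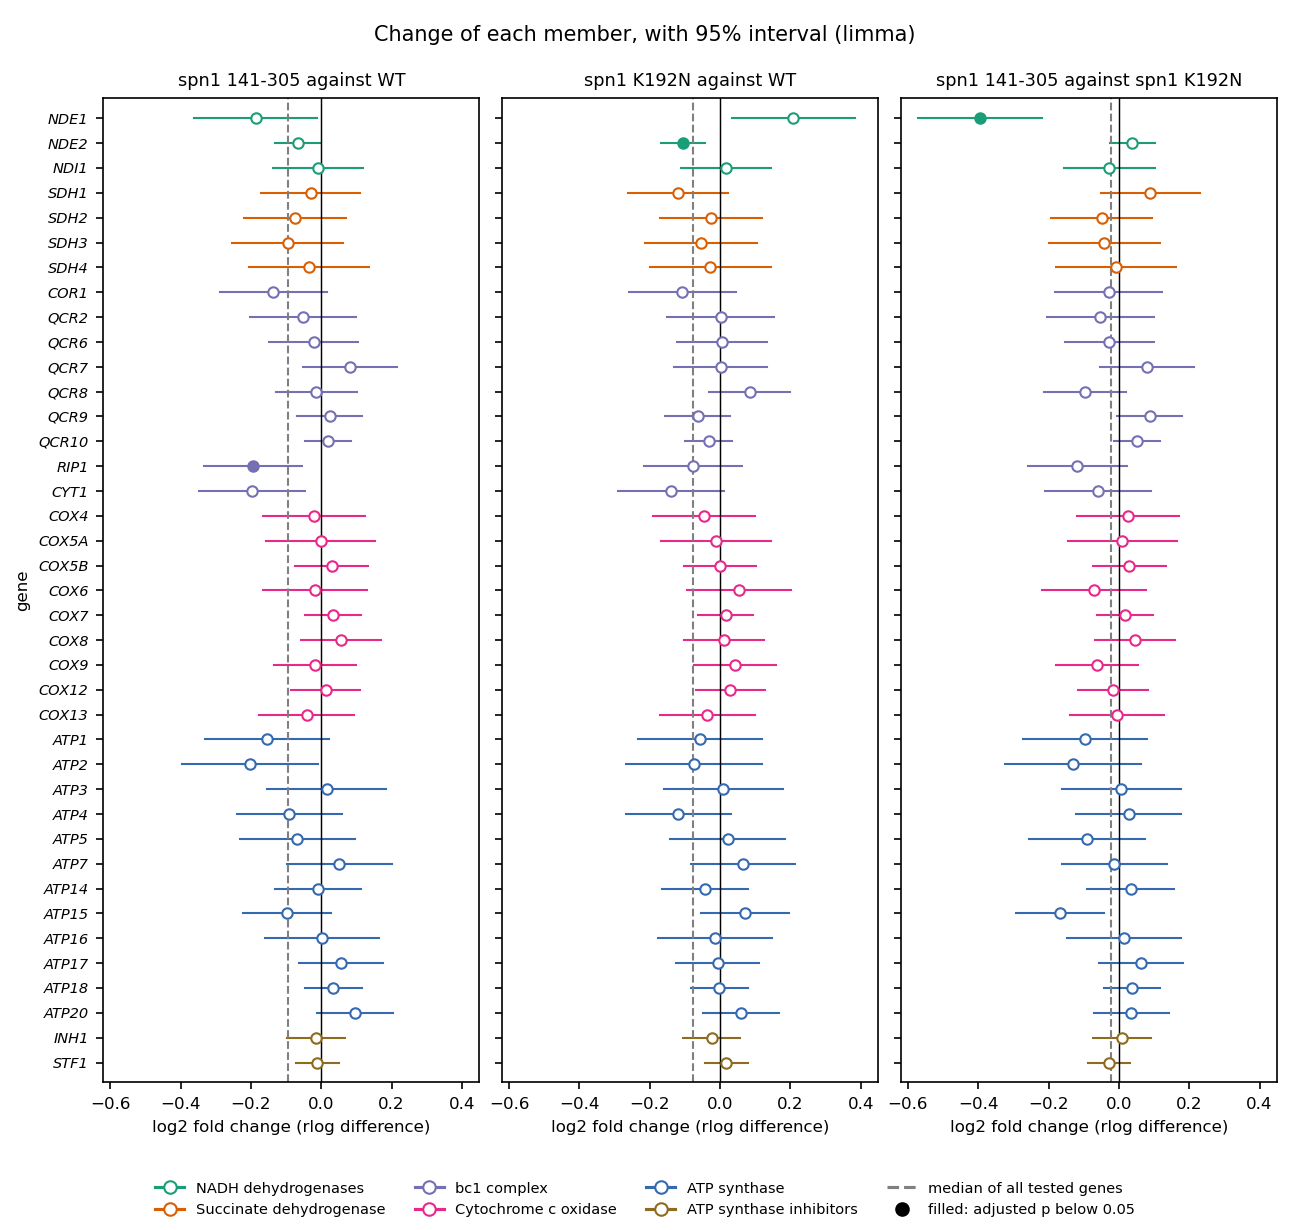
Log2 fold change of each of the 39 members (x axis, rlog difference) with its 95% interval from limma, in spn1 141-305 against WT, in spn1 K192N against WT and in spn1 141-305 against spn1 K192N. Colours mark the complex, filled points are called at an adjusted p below 0.05 and the dashed line is the median of all tested genes; only *RIP1*, *NDE2* and *NDE1* are filled, 1 in each panel.

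The intervals limit how large a missed change could be on the rlog scale. Over the 39 members, 95% intervals reached from -0.40 to 0.21 in spn1 141-305 against WT, from -0.29 to 0.38 in spn1 K192N against WT and from -0.57 to 0.23 between the mutants. The standard error was 0.03 for the most weakly expressed member and 0.09 for the strongest. It had a median of 0.04 for the 7 members with a mean rlog under 7 and of 0.07 for the 21 members above 9, so it was smaller at low levels, where rlog pulls values together.

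The NADH dehydrogenases held 2 of the 3 calls. *NDE1* (YMR145C, chrXIII:554793-556475, minus strand) encodes the main external NADH dehydrogenase, which oxidises cytosolic NADH at the outer face of the inner membrane. Its rlog values were 12.49, 12.53 and 12.54 in spn1 141-305, 13.08, 12.88 and 12.79 in spn1 K192N and 12.79, 12.76 and 12.58 in WT. The 3 genotypes did not overlap, with all spn1 141-305 libraries below all WT libraries and all spn1 K192N libraries above them, although spn1 K192N replicate 3 and WT replicate 1 were equal to the second decimal. Over all tested genes, 45% had every spn1 141-305 library below every WT library and 1.44% had every spn1 K192N library above. The difference between spn1 141-305 and spn1 K192N was -0.40 (SE 0.09, adjusted p = 0.0093, limma). Neither mutant passed against WT, with -0.19 in spn1 141-305 (SE 0.09, adjusted p = 0.12) and 0.21 in spn1 K192N (SE 0.09, adjusted p = 0.14). The call between the mutants was lost without spn1 141-305 replicate 1 (-0.38, adjusted p = 0.063) and with a prior variance that ignores expression level (adjusted p = 0.054), and it held in the other 13 of 15 fits.

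*NDE2* (YDL085W, chrIV:303211-304848, plus strand) encodes the second external NADH dehydrogenase. It was weakly expressed, with an authors' mean scaled count of 38.3. Its rlog values were 5.26, 5.21 and 5.20 in spn1 141-305, 5.20, 5.20 and 5.15 in spn1 K192N and 5.26, 5.33 and 5.28 in WT. Both mutants lay below every WT library, by a margin that for spn1 141-305 replicate 1 was under 0.01. Of all tested genes, 45% had every spn1 141-305 library below every WT library, and 18.8% had every spn1 K192N library below. In spn1 K192N against WT, 4.8% of all tested genes were called lower. The change was -0.11 in spn1 K192N (SE 0.03, adjusted p = 0.042, limma) and -0.07 in spn1 141-305 (SE 0.03, adjusted p = 0.11). The call in spn1 K192N held in 3 of 14 other fits, and among those that leave out 1 library it held only without spn1 K192N replicate 1 or spn1 141-305 replicate 3, with adjusted p values from 0.0079 to 0.18. Relative to the median gene the change was -0.03 (adjusted p = 0.77).

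*NDI1*, the internal enzyme that oxidises matrix NADH, lay between 8.96 and 9.13 in all 9 libraries and did not separate the genotypes. The log2 ratio of *NDE1* over *NDE2* per kb of coding sequence averaged 7.26 in spn1 141-305, 7.69 in spn1 K192N and 7.38 in WT, or 153-fold in spn1 141-305, 207-fold in spn1 K192N and 167-fold in WT. By library the difference of the rlog values was 7.23, 7.32 and 7.34 in spn1 141-305, 7.87, 7.69 and 7.64 in spn1 K192N and 7.53, 7.43 and 7.30 in WT, so spn1 K192N stood above the other genotypes and spn1 141-305 overlapped WT. Because rlog compresses weak genes, these folds are those of the rlog scale.

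The promoter windows of the pair are shown because the gene products do the same reaction and their transcripts differ by more than 100-fold in each genotype. The window of *NDE1* holds a CCAAT, in capitals as ATTGG on the strand of the gene, 261 bases before the start codon, and TATAAA at 295 and 143 bases before it on either strand. The window of *NDE2* holds neither motif. Whether these motifs bear on the levels was not tested. As mean rlog minus log2 of the coding length in kb, the level was 11.96 for *NDE1* and 4.52 for *NDE2*. The other members without a CCAAT in the window had 10.76 (*COR1*), 10.49 (*COX4*), 9.76 (*CYT1*) and 6.65 (*STF1*).
NDE1 (chrXIII:556576-556775, minus strand): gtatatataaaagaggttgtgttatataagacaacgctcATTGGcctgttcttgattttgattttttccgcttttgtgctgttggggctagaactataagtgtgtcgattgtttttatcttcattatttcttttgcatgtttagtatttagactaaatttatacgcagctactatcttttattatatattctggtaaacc
NDE2 (chrIV:302911-303110, plus strand): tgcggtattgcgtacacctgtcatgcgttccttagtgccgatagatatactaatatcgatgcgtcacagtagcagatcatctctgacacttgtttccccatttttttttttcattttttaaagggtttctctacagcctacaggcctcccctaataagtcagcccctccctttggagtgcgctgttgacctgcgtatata
The G+C content of the window was 31% for *NDE1* and 44.5% for *NDE2*.

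**Figure D2:**
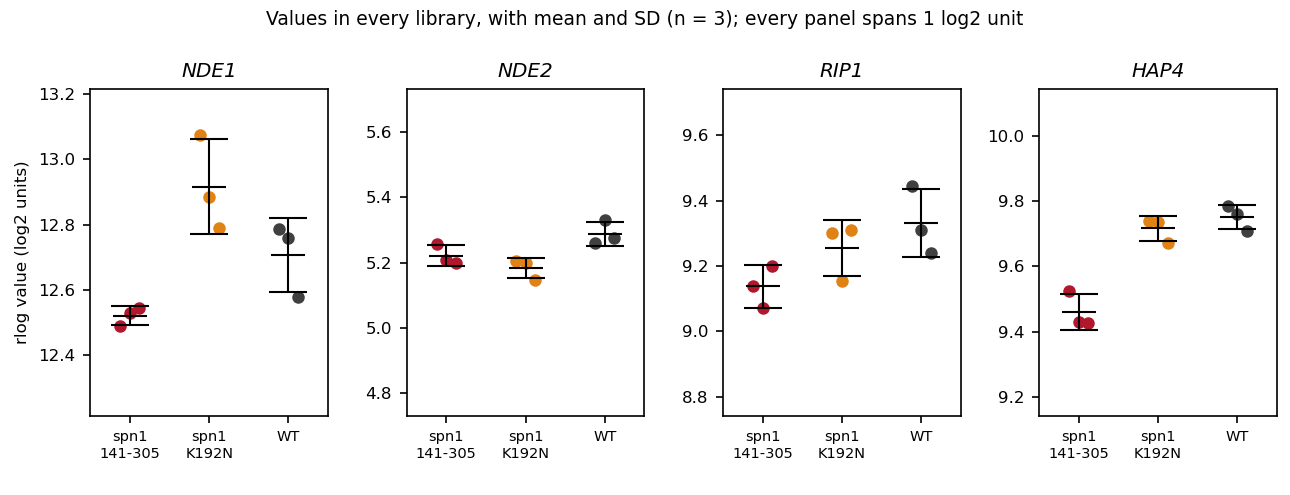
rlog values (y axis, log2 units) of *NDE1*, *NDE2*, *RIP1* and *HAP4* in every library of spn1 141-305, spn1 K192N and WT, with the mean and SD (n = 3); every panel spans 1 log2 unit. *NDE1* falls into 3 separate ranges, *NDE2* differs by about 0.11 between spn1 K192N and WT, and *HAP4* is lower in the 3 spn1 141-305 libraries than in the other 6.

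In the bc1 complex, which hands electrons from ubiquinol to cytochrome c, 1 of 9 genes was called lower in spn1 141-305, beside 18.8% of all tested genes, and none was called in spn1 K192N, beside 4.8% lower. *RIP1* (YEL024W, chrV:107260-107907, plus strand), the Rieske iron-sulfur protein, had rlog values of 9.14, 9.07 and 9.20 in spn1 141-305, 9.30, 9.15 and 9.31 in spn1 K192N and 9.44, 9.31 and 9.24 in WT. All 3 spn1 141-305 libraries were below all 3 WT libraries, and spn1 K192N overlapped both. The change was -0.19 in spn1 141-305 (SE 0.07, adjusted p = 0.045, limma) and -0.08 in spn1 K192N (SE 0.07, adjusted p = 0.49). Leaving out any spn1 141-305 library, WT replicate 1 or WT replicate 2 ended the call, with changes of -0.24 to -0.14 and adjusted p values of 0.011 to 0.25 over the 9 fits that leave out 1 library. Relative to the median gene the change was -0.10 (adjusted p = 0.25).

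*CYT1*, which encodes cytochrome c1, is named after its values were seen. It had 9.57, 9.59 and 9.56 in spn1 141-305, 9.79, 9.58 and 9.52 in spn1 K192N and 9.87, 9.78 and 9.66 in WT, a change of -0.20 in spn1 141-305 (SE 0.07, adjusted p = 0.056) and of -0.14 in spn1 K192N (SE 0.07, adjusted p = 0.25). It did not pass in either. Its spn1 141-305 libraries all lay below its WT libraries, as did those of 45% of all tested genes. *COR1*, a core subunit with no redox centre, also had its spn1 141-305 libraries below WT, at -0.14 (adjusted p = 0.19), and the other core subunit, *QCR2*, did not (-0.05, adjusted p = 0.64). The 5 small accessory subunits *QCR6* to *QCR10* lay between -0.02 and 0.08 in spn1 141-305 and between -0.06 and 0.08 in spn1 K192N, and none passed. The median of the 9 genes was -0.02 in spn1 141-305 and -0.03 in spn1 K192N.

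Cytochrome c oxidase passes electrons to oxygen at the end of the chain, and its nuclear subunits surround a catalytic core made in the mitochondrion. None of its 9 nuclear genes passed in any comparison, and none had libraries that separated 2 genotypes. Of all tested genes, 18.8% were called lower in spn1 141-305 and 4.8% in spn1 K192N. Every library was below WT for 45% in spn1 141-305 and 18.8% in spn1 K192N. All 9 are in the shortest quartile of coding length, where 4.27% of genes were called lower in spn1 141-305 and 2.13% in spn1 K192N. Their changes ran from -0.04 (*COX13*) to 0.06 (*COX8*) in spn1 141-305 and from -0.05 (*COX4*) to 0.05 (*COX6*) in spn1 K192N, and all 9 were above the median tested gene in both. The median over the 9 genes was -0.0017 in spn1 141-305 and 0.01 in spn1 K192N.

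*COX5A* and *COX5B* encode alternative forms of 1 subunit, the first used with oxygen and the second favoured when oxygen is low. *COX5A* had 9.48, 9.44 and 9.59 in spn1 141-305, 9.67, 9.45 and 9.35 in spn1 K192N and 9.61, 9.45 and 9.44 in WT. *COX5B* had 7.20, 7.29 and 7.29 in spn1 141-305, 7.26, 7.13 and 7.30 in spn1 K192N and 7.25, 7.19 and 7.25 in WT. The genotypes overlapped in both. Per kb of coding sequence *COX5A* stood 4.67-fold above *COX5B* in spn1 141-305, 4.73-fold in spn1 K192N and 4.77-fold in WT, and the log2 difference per library (2.05 to 2.41) overlapped between the genotypes.

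In succinate dehydrogenase, which feeds electrons from the citric acid cycle into ubiquinone, all 4 genes had values below 0 in both mutants and none passed. Of the 5954 tested genes, 5140 were below 0 in spn1 141-305 and 4977 in spn1 K192N. The shares called lower were 18.8% in spn1 141-305 and 4.8% in spn1 K192N. *SDH1*, the flavoprotein, changed by -0.03 in spn1 141-305 and -0.12 in spn1 K192N. *SDH2*, the iron-sulfur subunit, changed by -0.07 in spn1 141-305 and -0.03 in spn1 K192N. The membrane anchors had -0.09 in spn1 141-305 and -0.05 in spn1 K192N for *SDH3*, and -0.04 in spn1 141-305 and -0.03 in spn1 K192N for *SDH4*. The smallest adjusted p of these 8 values was 0.29.

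The ATP synthase, which turns the proton gradient into ATP, held the most strongly expressed members. *ATP2*, the catalytic beta subunit, had 13.96, 14.06 and 14.12 in spn1 141-305, 14.38, 14.05 and 14.10 in spn1 K192N and 14.37, 14.26 and 14.12 in WT. *ATP1*, the alpha subunit, had 13.01, 12.97 and 13.00 in spn1 141-305, 13.21, 13.03 and 13.03 in spn1 K192N and 13.30, 13.13 and 13.01 in WT. In both genes the highest spn1 141-305 library and the lowest WT library were less than 0.01 apart. Neither change passed, at -0.20 for *ATP2* (SE 0.09, adjusted p = 0.12) and -0.15 for *ATP1* (SE 0.09, adjusted p = 0.20). Both are named with their libraries after their values were seen.

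Of the other 10 ATP synthase genes none passed in any comparison. Over all tested genes, 18.8% were called lower in spn1 141-305 against WT, 4.8% in spn1 K192N against WT and 1.28% between the mutants. *ATP3*, the gamma subunit of the rotor, was at 0.02 in spn1 141-305 and 0.0090 in spn1 K192N, and *ATP16*, the delta subunit of the rotor, at 0.0012 in spn1 141-305 and -0.01 in spn1 K192N. *ATP15*, the epsilon subunit, had -0.10 in spn1 141-305 and 0.07 in spn1 K192N. Its libraries did not overlap between the mutants (-0.17, adjusted p = 0.20, limma), as those of 12% of all tested genes did not in that direction. The stator, which holds the catalytic head still, includes *ATP4* (subunit b), *ATP5* (the oligomycin sensitivity subunit), *ATP7* (subunit d) and *ATP14* (subunit h), and *ATP17* (subunit f), *ATP18* (subunit i/j) and *ATP20* (subunit g, which helps the enzyme to form dimers) belong to its membrane part. Their changes ran from -0.09 (*ATP4*) to 0.10 (*ATP20*) in spn1 141-305. The median of the 12 genes was -0.0038 in spn1 141-305 and -0.0043 in spn1 K192N. The inhibitors bind the enzyme and block ATP hydrolysis when the gradient collapses. *INH1* had 6.25, 6.21 and 6.23 in spn1 141-305, 6.28, 6.24 and 6.15 in spn1 K192N and 6.25, 6.29 and 6.20 in WT. *STF1* had 4.69, 4.72 and 4.71 in spn1 141-305, 4.81, 4.73 and 4.66 in spn1 K192N and 4.73, 4.71 and 4.71 in WT. Neither separated the genotypes, and per kb *INH1* stood 2.92-fold above *STF1* in spn1 141-305, 2.84-fold in spn1 K192N and 2.93-fold in WT.

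**Figure D3:**
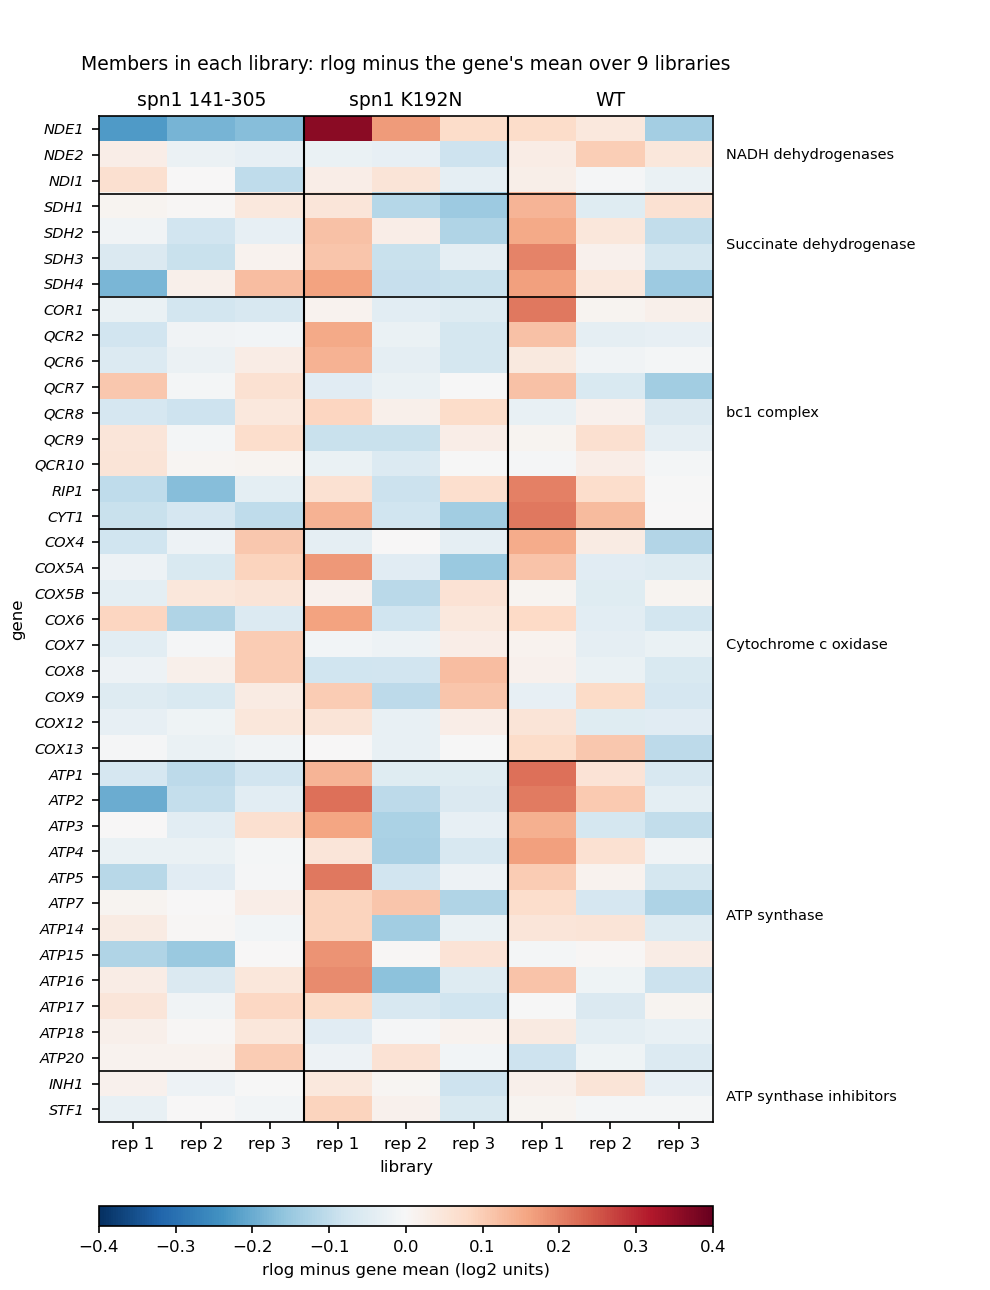
Each member (rows, by complex) in each library (columns, spn1 141-305, spn1 K192N and WT), as the rlog value minus the gene's mean over the 9 libraries (colour, log2 units). Replicate 1 of spn1 K192N and replicate 1 of WT hold the highest value of 13 and 12 of the 39 members.

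Within each genotype the libraries differed more than the genotype means did. The median deviation of the 39 members from their own means was -0.03, -0.02 and 0.01 in spn1 141-305, 0.08, -0.05 and -0.04 in spn1 K192N and 0.07, 0.01 and -0.04 in WT, and the genotype means were -0.01 in spn1 141-305, 0.0012 in spn1 K192N and 0.01 in WT. Replicate 1 of spn1 K192N and replicate 1 of WT were the highest in each genotype, as they were for all genes. Over the members, 25 of 39 had their highest value in 1 of these 2 libraries. In spn1 141-305 against WT, 7 members (*NDE1*, *NDE2*, *COR1*, *RIP1*, *CYT1*, *ATP1* and *ATP2*) were lower and 1 (*ATP20*) was higher in every library, where 45% of all tested genes were lower in every library and 1.6% were higher. In spn1 K192N against WT, 1 member (*NDE2*) was lower and 2 (*NDE1* and *QCR8*) were higher, beside 18.8% lower and 1.44% higher over all tested genes. Between the mutants 3 (*NDE1*, *ATP1* and *ATP15*) were lower and 1 (*QCR10*) was higher in spn1 141-305, beside 12% lower and 4.55% higher.

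Coding length went with the change, and the members are short genes. Their coding sequences ran from 180 to 1923 bp, and 28 of 39 fell into the shortest quartile of the 5565 tested protein-coding genes, which spans 153 to 753 bp. In that quartile the median change in spn1 141-305 was -0.0099 for the members and -0.03 for all genes, and in spn1 K192N it was -0.00092 for the members and -0.04 for all genes. In the second quartile the 4 members had -0.06 in spn1 141-305, against -0.08 for all genes, and -0.01 in spn1 K192N, against -0.07. The third quartile went the other way in spn1 141-305, where its 6 members had -0.15, against -0.12 for all genes, and 4 of the 6 lay below that median. In spn1 K192N those 6 had -0.07, against -0.09. The longest quartile, with a median of -0.19 in spn1 141-305 and -0.13 in spn1 K192N, held 1 member, *SDH1*, at -0.03 and -0.12. Set against the median of its own quartile, a member lay higher in 27 of 39 cases in spn1 141-305 and in 30 of 39 in spn1 K192N.

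The same order held within the members. The 8 members with 1000 bp or more, which are *NDE1*, *NDE2*, *NDI1*, *SDH1*, *COR1*, *QCR2*, *ATP1* and *ATP2*, were all below 0 in spn1 141-305 with a median of -0.10, against -0.01 for the 31 shorter ones. In spn1 K192N 5 of the 8 were below 0, with a median of -0.07, against -0.0017 for the 31 shorter ones. Across the 39 members, Spearman's rho between coding length and change was -0.60 in spn1 141-305 and -0.40 in spn1 K192N, beside -0.58 and -0.39 across the 5565 genes. These are descriptions across genes, which are not independent replicates and share the WT libraries. Expression level went with length too (rho = 0.73 between coding length and mean rlog), and with the change in spn1 141-305 (rho = -0.55). The parts of length and level in the change were not tested.

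**Figure D4:**
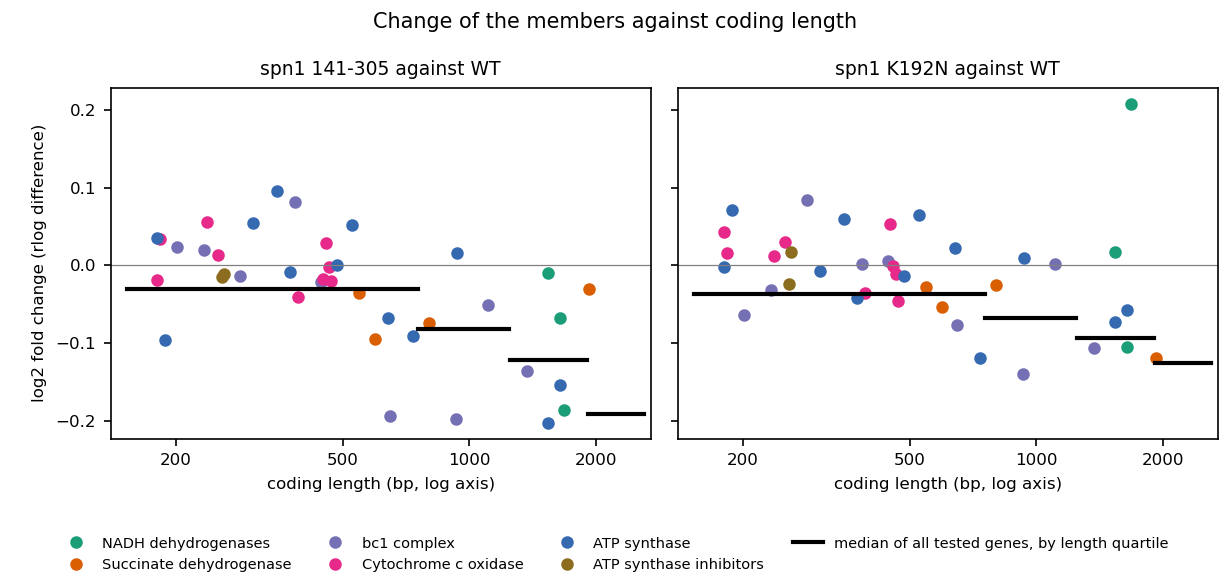
Log2 fold change (y axis, rlog difference) of each member against its coding length (x axis, bp, log axis), in spn1 141-305 against WT and in spn1 K192N against WT. Black bars are medians of all tested protein-coding genes by quartile of coding length, -0.03 in the shortest and -0.19 in the longest in spn1 141-305; most members lie above the bar of their quartile.

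Levels differed far more between members than between genotypes. As mean rlog minus log2 of the coding length in kb, members ran from 4.52 (*NDE2*) to 13.54 (*ATP2*). Within the complexes the spread of this level was 2.39 in cytochrome c oxidase (8.37 for *COX5B* to 10.76 for *COX13*), 2.67 in succinate dehydrogenase, 3.03 in the bc1 complex and 4.69 in the ATP synthase (8.85 for *ATP18* to 13.54 for *ATP2*). *ATP1*, with 12.37, was the nearest to *ATP2*, and *COX4*, *COX5A*, *COX6* and *COX13* lay within 10.49 to 10.76. Levels of the shortest genes need care, because 25.7% of genes with coding sequences of 150 to 200 bp and 96.6% of those under 150 bp were listed at 0 in every library, against 0.0577% of genes of 1000 bp or more. The 4 members under 200 bp, *COX7*, *COX9*, *ATP15* and *ATP18*, are of that size class. The 3 members with an intron in the coding sequence are *QCR9*, *QCR10* and *COX5B*. The coding span of none of the 39 overlaps another gene of the RefSeq annotation, tRNA genes aside. That annotation matched 5896 of the 6577 genes of the matrix, and overlaps with the unmatched genes were not searched.

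**Figure D5:**
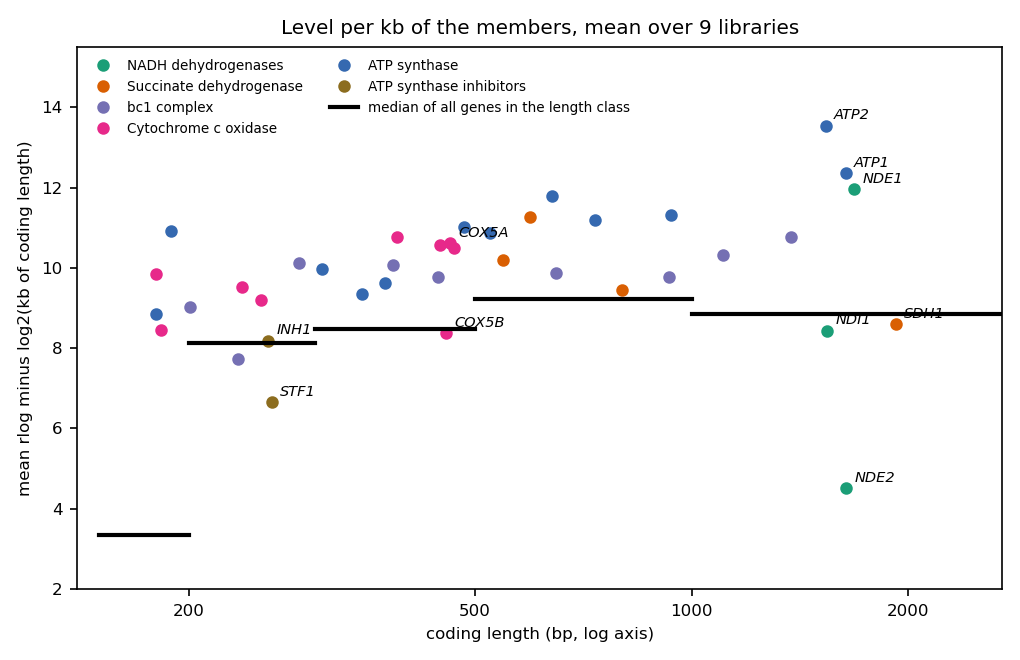
Level of each member as mean rlog over 9 libraries minus log2 of the coding length in kb (y axis, log2 units) against coding length (x axis, bp, log axis), coloured by complex. Black bars are medians of all protein-coding genes by length class; *ATP2* is the highest member at 13.54 and *NDE2* the lowest at 4.52.

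The mitochondrial genome encodes the remaining core subunits. Its 7 genes *COX1*, *COX2*, *COX3*, *COB*, *ATP6*, *ATP8* and *OLI1* had rlog values of -1.48 to 0.58 in all 9 libraries, which were made from poly-A RNA, and none was tested. The nuclear and mitochondrial subunits of a complex could therefore not be compared here.

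Among the regulators, *HAP4*, the activator subunit of the CCAAT-binding complex, had 9.52, 9.43 and 9.43 in spn1 141-305, 9.74, 9.74 and 9.67 in spn1 K192N and 9.78, 9.76 and 9.71 in WT. All 3 spn1 141-305 libraries were below the other 6. Over all tested genes, 45% had every spn1 141-305 library below every WT library, and 12% had all below every spn1 K192N library. The difference was -0.29 against WT (SE 0.06, adjusted p = 0.0031, limma) and -0.26 against spn1 K192N (SE 0.06, adjusted p = 0.029). Against WT this held in each of 15 other fits (adjusted p up to 0.025), while against spn1 K192N it held in 9 of 15 and was lost without any 1 spn1 141-305 library, without spn1 K192N replicate 2, with a prior variance that ignores expression level and with only the 6 libraries compared (adjusted p up to 0.18). *HAP1*, the heme-responsive activator gene, which carries a Ty1 insertion in strains of this background, fell by 0.44 in spn1 141-305 (SE 0.09, adjusted p = 0.0018) and by 0.40 in spn1 K192N (SE 0.09, adjusted p = 0.0084), the second call being lost without spn1 K192N replicate 2 or 3 or WT replicate 1 (adjusted p up to 0.11). The other 4 tested genes of the list, *CYC1*, *HAP2*, *HAP3* and *HAP5*, were not called, and *CYC7* was too low to be tested. In spn1 141-305 against WT, 2 of the 6 tested genes were thus called lower, beside 18.8% of all tested genes. In spn1 K192N against WT it was 1 of 6, beside 4.8%, and between the mutants 1 of 6, beside 1.28%.

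Grouped by promoter sequence, the 13 members with TNATTGGT had a median change of -0.0087 in spn1 141-305, from -0.19 (*RIP1*, the member called lower there) to 0.08, and of 0.0090 in spn1 K192N. The 26 members without it had -0.02 in spn1 141-305 and -0.02 in spn1 K192N. The 34 members with a CCAAT in the window had -0.01 in spn1 141-305 (from -0.20 to 0.10) and -0.00092 in spn1 K192N (from -0.12 to 0.21). The 5 without one there had -0.07 in spn1 141-305 (from -0.20 to -0.01) and -0.11 in spn1 K192N (from -0.14 to 0.02). Both medians of the 5 are the values of 1 weakly expressed gene, *NDE2*. The 5 were also longer, with a median coding length of 930 bp against 451.5 bp. No test was made of these differences.

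Genes that assemble the complexes are set beside the shares of all tested genes called lower, 18.8% in spn1 141-305 and 4.8% in spn1 K192N. Of 32 cytochrome oxidase assembly genes, 2 fell in spn1 141-305, *PET494* (-0.20, adjusted p = 0.017) and *PET309* (-0.19, adjusted p = 0.032), which are translational activators of mitochondrial *COX3* and *COX1*, and none was called in spn1 K192N. Of 11 bc1 assembly genes, *CBP1*, which stabilises the *COB* transcript, fell in spn1 141-305 (-0.23, adjusted p = 0.028). Of 12 ATP synthase assembly genes, *ATP22*, which acts in translation of *ATP6*, fell in spn1 141-305 (-0.26, adjusted p = 0.0088), and *AEP2*, needed for the *OLI1* transcript, fell in spn1 K192N (-0.22, adjusted p = 0.043). *NCA3*, linked to expression of *ATP6* and *ATP8*, rose in spn1 K192N (0.27, adjusted p = 0.021, limma), where 0.403% of all tested genes were called higher. That call was lost when any 1 WT library was left out (adjusted p up to 0.093). *NCA3* was also lower in spn1 141-305 than in spn1 K192N (-0.34, adjusted p = 0.0058), as *NDE1* was, beside 1.28% of all tested genes. None of the 5 tested succinate dehydrogenase assembly genes and none of 6 tested other subunits and isoforms was called in any comparison.

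Beside the same shares, *COQ2*, of 11 coenzyme Q synthesis genes, fell in spn1 141-305 (-0.22, adjusted p = 0.0498), and of 11 citric acid cycle genes, *LPD1*, the dihydrolipoamide dehydrogenase of the ketoacid complexes, fell there (-0.25, adjusted p = 0.044). Of the 11 citric acid cycle genes, 5 lay above the median tested gene in spn1 141-305 and 2 in spn1 K192N, with a list median of -0.10 in spn1 141-305 and -0.12 in spn1 K192N. Of 16 glucose-repressed carbon genes, 5 fell in spn1 141-305, where 18.8% of all tested genes were called lower, among them *SUC2*, invertase (-0.30, adjusted p = 0.0098), *MDH2*, cytosolic malate dehydrogenase (-0.25, adjusted p = 0.022), and *CTA1*, peroxisomal catalase (-0.22, adjusted p = 0.015). In spn1 K192N, where 4.8% of all tested genes were called lower, 2 of the 16 fell, *MDH2* (-0.34, adjusted p = 0.0070) and *CTA1* (-0.26, adjusted p = 0.011). *PCK1*, which starts gluconeogenesis, was lower in spn1 141-305 than in spn1 K192N (-0.25, adjusted p = 0.047), beside 1.28% of all tested genes. These adjusted p values are limma's, over all tested genes. Of the 21 calls in the related lists, only those of *HAP1* and *HAP4* in spn1 141-305 against WT held in all 9 fits that leave out 1 library.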

How the data were processed

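Poly-A RNA was sequenced from triplicate cultures of spn1 141-305, spn1 K192N and WT, grouped by their labels. Per the paper's methods and the submitters' processing notes, the authors quantified transcripts with Salmon 1.9 against the cDNA of R64 and of *S. pombe*, estimated size factors on the *S. pombe* genes and, with DESeq2 1.30.1 in R 4.0.3, deposited log2 values (rlog), 1 per gene and library. The authors' comparison tables also hold a mean scaled count over all 9 libraries, deposited as a signal with no value per library. Their fold changes and p-values were not used. Depth per library was not analysed here. Per-sample columns without a label numbered 0.

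Genes averaging log2(10) or more over the libraries were tested with limma 3.58.1 in R 4.3.3 (1 mean per genotype over 9 libraries, empirical Bayes with trend, two-sided, Benjamini-Hochberg over 5954 genes), since rlog values are not counts. A gene was called at an adjusted p below 0.05. The fit was tested on simulated data with known changes. It recovered 97 of 100 genes changed by 0.5 and 60 of 100 changed by -0.25, so it can miss changes of the smaller size. The other choices tried were no low-value filter, a mean of at least log2(100), centring of libraries on the median gene, no prior trend, only the 6 libraries compared, the replicate number as a block, a threshold of 0.01 and leaving out each library.

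All members are named, and values in every library are given for members called in at least 1 comparison and for the pairs *COX5A* and *COX5B*, *NDE1* and *NDE2*, and *INH1* and *STF1*. Of each related list, called genes are named, up to the 3 with the largest change in each comparison. The members and the lists were chosen with earlier results of these data known. Coding lengths, coordinates and sequences are those of RefSeq R64, matched by systematic name for 5896 of 6577 genes. Motifs were searched on both strands.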

Additional observations from a re-analysis of the deposited data

Results flagged for a closer look

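For 5 of the genes screened, the test of spn1 141-305 against spn1 K192N passed (limma, adjusted over 5954 genes). For these the 2 mutants' changes from WT differed. Over all tested genes, 1.28% were called lower and 0.621% higher in this comparison. The genes screened were the 39 members, of which 1 (*NDE1*) passed, the related genes that hold the 21 calls, and *SPN1*. Because related genes entered through their calls, the passes of *HAP4*, *NCA3* and *PCK1* were partly set by that choice. The count of 5 can therefore not be set against the shares over all tested genes. For *NDE1* the difference was -0.40 (adjusted p = 0.0093), and the mutants lay on opposite sides of WT in every library. For *NCA3* it was -0.34 (adjusted p = 0.0058), again with spn1 141-305 below and spn1 K192N above every WT library, and it was lost only without spn1 141-305 replicate 1 (adjusted p = 0.051). For *HAP4* it was -0.26 (adjusted p = 0.029), with spn1 141-305 below both other genotypes. For *SPN1*, whose allele in spn1 141-305 lacks part of the coding sequence, it was -1.51 (adjusted p = 0.00053), and it was lost only with a prior variance that ignores expression level (adjusted p = 0.11). For *PCK1* it was -0.25 (adjusted p = 0.047), and it held in 4 of the 9 fits that leave out 1 library, where it ran from -0.34 to -0.14. Groups of 3 libraries are too small for a test of single outlying libraries.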

How the results depend on the processing

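Of the 117 member results, 114 were not called, and 104 of these were called under none of 15 other fits. The count of members called lower in spn1 141-305 against WT was 1, and became 0 without a filter on low values, with centred libraries, with a prior without trend and at a threshold of 0.01, 2 with a mean of at least log2(100), 4 with only the 6 libraries compared and 0 to 4 when 1 library was left out. The count in spn1 K192N against WT was 1, and became 0 with no filter, with the higher filter (which removed *NDE2*), with centring, without trend, with 6 libraries only and at 0.01, and 0 to 4 with 1 library left out. The count between the mutants was 1, and became 0 without trend and 0 to 1 with 1 library left out. With libraries centred on the median gene, members called higher numbered 3 in spn1 141-305 (*QCR7*, *ATP17* and *ATP20*) and 1 in spn1 K192N (*NDE1*), where none was called otherwise. Centring brings the median gene to 0.00 against WT in both mutants, and the medians with it: in spn1 141-305 to 0.0812 for all members, 0.0312 for NADH dehydrogenases, 0.0437 for succinate dehydrogenase, 0.0773 for the bc1 complex, 0.0967 for cytochrome c oxidase, 0.0947 for the ATP synthase and 0.0857 for the inhibitors, and in spn1 K192N to 0.0704 for all members, 0.0946 for NADH dehydrogenases, 0.0454 for the bc1 complex, 0.0890 for cytochrome c oxidase and 0.0742 for the inhibitors. With 1 library left out, the bc1 median between the mutants ran from -0.0667 to 0.0241. With the replicate block, 2 members were lower in spn1 141-305 against WT (*RIP1* and *CYT1*), and *NDE1* was called between the mutants (adjusted p = 0.0038). Deviations of same-numbered libraries correlated at -0.28 to 0.25, above 0.1 in 3 of 9 pairs, and those of other pairs at -0.45 to 0.34. Such a correlation cannot register an offset of a whole library. For the median gene, replicate 1 was the highest in spn1 K192N and WT and the lowest in spn1 141-305. With the block, all genes called lower rose from 286 to 469 in spn1 K192N and from 1120 to 1420 in spn1 141-305, against WT. Whether replicate numbers pair the samples was therefore not settled. All of these fits use rlog values, which narrow the changes of the 6 members with a mean scaled count under 100.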
